A study of Mus musculus with 6 samples.

Results

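The genes described here are the core enzymes and carriers of microRNA processing: Drosha and Dgcr8, which form the nuclear Microprocessor, Dicer1 and its RNA-binding partner Tarbp2, and the Argonautes Ago1 to Ago4. They were found by gene symbol. The expression table lists the Argonautes under their older symbols Eif2c1, Eif2c2, Eif2c3 and Eif2c4, and all 8 genes had a row among the 23235 rows. Of these 8, 6 reached the mean of 1 FPKM (fragments per kilobase of transcript, scaled to the size of the library, a level per length) over all libraries that was required for the test across genes. Eif2c1 (Ago1) and Eif2c4 (Ago4) did not, and are described by their levels and by a separate fit without that requirement.

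The libraries came from fully grown mouse oocytes at the germinal vesicle stage, the prophase-arrested stage before meiosis resumes. There were 3 wild-type (WT) libraries and 3 libraries of the Rtcb knock-out (KO), all of strain C57BL/6 and all from females given pregnant mare serum gonadotropin (PMSG) 44 to 48 h before collection. Each library held a pool of 10 oocytes lysed with ERCC spike-in RNA and was made from polyadenylated RNA by Smart-seq2. The sample titles carry the tag 6W, which the labels do not spell out. Rtcb encodes an RNA ligase that acts in tRNA splicing. The labels name neither a Cre driver nor the deleted part of the gene, and do not say whether pools came from separate animals. The p-values therefore cover variation between these pools alone, and that variation may be technical.

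In the microRNA pathway, Drosha cuts hairpins out of long primary transcripts with its cofactor Dgcr8, exportin 5 carries the hairpins to the cytoplasm, and Dicer1 cuts them to short duplexes with the help of Tarbp2. An Argonaute keeps one strand and uses it to find target RNAs. Ago2 is the mammalian Argonaute best known for cutting its targets. Mouse oocytes also carry endogenous small interfering RNAs, which need Dicer1 and Ago2 but not Dgcr8, and microRNA activity in growing oocytes is known to be weak.

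The Dgcr8 and Drosha genes differed most in the comparison of partners given further on, so the RefSeq sequence upstream of their start sites is shown first, as the 250 bases before the start on the gene's strand with every CpG in capitals (build GRCm38.p6). The Drosha window is chr15:12824565-12824814 on the plus strand and the Dgcr8 window is chr16:18289169-18289418 on the minus strand.
Drosha: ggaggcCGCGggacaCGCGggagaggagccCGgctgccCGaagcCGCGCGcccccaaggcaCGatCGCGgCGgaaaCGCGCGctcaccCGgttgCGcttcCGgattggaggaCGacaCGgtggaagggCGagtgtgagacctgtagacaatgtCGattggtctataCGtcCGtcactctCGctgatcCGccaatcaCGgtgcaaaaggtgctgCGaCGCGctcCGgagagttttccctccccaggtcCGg
Dgcr8: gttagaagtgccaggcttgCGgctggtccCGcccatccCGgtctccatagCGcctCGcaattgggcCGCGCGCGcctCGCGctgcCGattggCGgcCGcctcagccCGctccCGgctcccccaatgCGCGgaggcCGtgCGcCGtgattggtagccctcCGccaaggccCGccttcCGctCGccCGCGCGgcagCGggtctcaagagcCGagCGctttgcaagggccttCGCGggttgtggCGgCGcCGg
The Drosha window held 33 CpGs and the Dgcr8 window 36, against a median of 6 over 32817 promoters of the same length. The other windows held 39 CpGs for Dicer1, 18 for Tarbp2, 27 for Ago3 and 46 for Ago4, with 26 and 28 for the 2 start sites of Ago1. All 7 genes with an entry were thus above the median. The CCAAT box (CCAAT, either strand) occurred 3 times in the Drosha window and 4 times in the Dgcr8 window, and at least once in 33.8% of all promoters. The SP box GGGCGG, found in 32.7% of promoters, occurred once in the Dgcr8 window and not in the Drosha window, while the ETS core CCGGAAG, found in 6.90%, occurred once in the Drosha window and not in the Dgcr8 window. The letters TATAAA (12.4% of promoters) and CACGTG (6.02%) were in neither. The expression table was made on mm9, so these coordinates are RefSeq's and not those of the deposited values.

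A microRNA hairpin also lies inside Dgcr8. Another annotated hairpin there, Gm24572 (chr16:18284550-18284637, same strand), lies in an untranslated part of an exon and has no expression row. The hairpin of Mir1306 (chr16:18284239-18284317, minus strand, GRCm38.p6) sits in a coding exon of Dgcr8 on the same strand, and its arms are shown because a row of the table carries its name. Capitals mark the seed, bases 2 to 8, which pairs with target RNAs.
mmu-miR-1306-5p: cACCACCUccccugcaaacgucc
mmu-miR-1306-3p: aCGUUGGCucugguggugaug
The arms lie at chr16:18284288-18284310 and chr16:18284248-18284268. Their seeds differ.

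The values were deposited as FPKM scaled to the spike-in RNA. The final digits of the values fit a common multiplier of 2 in every WT library and of 1.33 in every KO library, up to powers of 10, a KO to WT ratio of 0.667 or -0.58 on the log2 scale. The multiplier did not vary within a genotype, so intervals and p-values as deposited include no uncertainty of this scaling. The 8 genes are therefore compared as deposited and with these multipliers removed, which leaves FPKM relative to each library's own reads. For genes named from the pathway lists, values are as deposited unless stated, and calls that end with the multipliers removed are named. The number of oocytes per pool was fixed at 10; for RNA of other cell types, fewer cells of a type and less RNA per cell cannot be told apart. Summed FPKM was 1267730 to 1347014 in WT and 943926 to 999507 in KO, and sequencing depth is unknown. The targeted gene, listed as D10Wsu52e, was at 136, 133 and 113 FPKM in WT and at 3.82, 2.62 and 2.49 FPKM in KO. The summed level of 12 oocyte markers was 30903 to 35592 FPKM in WT and 20108 to 21611 FPKM in KO. As deposited 7 of them were called lower and 1 higher (54.0% and 9.29% of all tested genes). With the multipliers removed 3 were lower and 4 higher (18.0% and 25.7%). Of 14 granulosa cell markers, 7 were under 1 FPKM in every library, among them Amh, Fshr and Foxl2, and Ptx3 was listed at 0 in all; their summed level was 59.2 to 65.5 FPKM in WT and 46.9 to 62.0 FPKM in KO. Cyp19a1 made up most of that sum in WT and fell as deposited (35.6 to 39.8 FPKM in WT, 17.5 to 22.2 FPKM in KO), Nr5a2 rose (7.57 to 11.3 and 12.3 to 14.5 FPKM), and Inha was at 3.50 to 8.36 and 6.08 to 17.8 FPKM with no call. With the multipliers removed the Cyp19a1 call ended and the Nr5a2 call held. The Nr5a2 call as deposited was lost in 4 of the 6 fits that left out 1 library. Of 10 theca and stroma markers, 8 were under 1 FPKM in every library, 3 of them (Lum, Col3a1 and Acta2) listed at 0, with sums of 2.32 to 4.24 FPKM in WT and 2.49 to 2.90 FPKM in KO. Of 11 blood and immune markers, 7 were under 1 FPKM in every library and 3 of them (Cd79a, Hba-a1 and Hbb-b1) were listed at 0; sums were 79.5 to 112 FPKM in WT and 115 to 121 FPKM in KO, mostly from C1qb. The part of these other cell types in the results was not tested.

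As deposited, 5 of the 6 tested genes were lower in KO (Drosha, Dicer1, Tarbp2, Ago2 and Ago3) and none was higher, by limma's moderated test on log2(FPKM + 1) with a Benjamini-Hochberg adjusted p under 0.05. Across all 12029 tested genes, 54.0% were lower by the same rule and 9.29% were higher. The median log2 change was -0.40 over the 6 genes and -0.47 over all tested genes, so their fall as a group was close to that of the transcriptome. With the multipliers removed, Dgcr8 was higher and none was lower, where 25.7% of all tested genes were higher and 18.0% lower; 3 of the 6 had an unadjusted limma p under 0.05, and 1 of these, Drosha, was lower. The median over the 6 genes was then 0.17 and over all tested genes 0.043. The KO and WT values did not overlap for 5 of the 6 tested genes as deposited (67.8% of all tested genes), and for 5 of the 6 with the multipliers removed (56.4%).

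**Figure D1:**
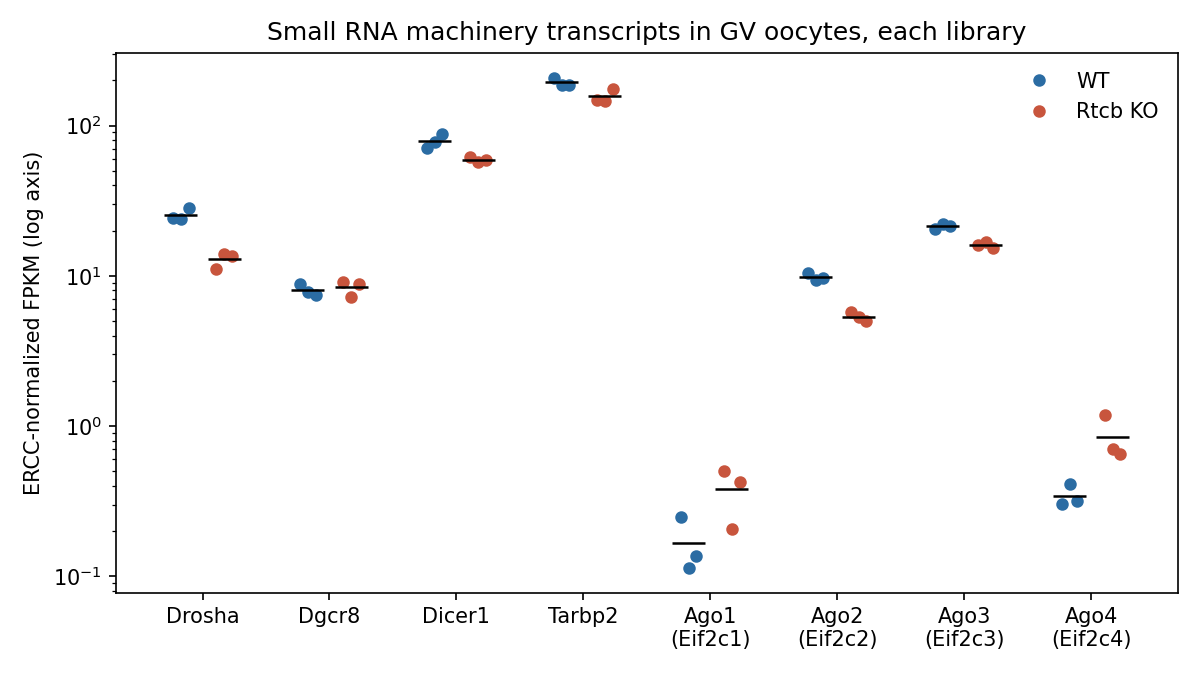
FPKM as deposited (vertical axis, log scale) of each of the 8 genes in every library, WT and KO side by side; points are libraries and black lines are means of 3. Tarbp2 and Dicer1 lie highest and Ago1 and Ago4 lowest in both genotypes, and the KO points of Drosha and Ago2 lie farthest below their WT points.

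The levels followed one order in WT. Tarbp2 was highest and lay above 88.4% of tested genes by WT mean, followed by Dicer1 (76.9%), Drosha (55.6%), Ago3 (52.3%), Ago2 (37.2%) and Dgcr8 (33.3%). Ago4 (0.457%) and Ago1 (0.274%) were at the floor of the table. The KO order differed by 2 exchanges of neighbours: Ago3 (53.5%) stood above Drosha (48.9%), and Dgcr8 (39.7%) above Ago2 (30.4%). Within each genotype, the ranges of neighbours in the order did not overlap over the 3 libraries.

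Drosha, the ribonuclease that starts microRNA processing, was lower in KO while its partner Dgcr8 was not. Drosha was at 24.2, 23.7 and 28.4 FPKM in WT replicates 1 to 3 and at 11.1, 14.0 and 13.5 FPKM in KO replicates 1 to 3. Every KO library was below every WT library. The means were 25.5 ± 2.58 FPKM (SD, n = 3) and 12.9 ± 1.56 FPKM (SD, n = 3), and the limma log2 change was -0.93 (SE 0.136, 95% interval -1.25 to -0.62, adjusted p = 0.00067). After removal of the multipliers the groups still did not overlap (12.7 ± 1.29 and 9.65 ± 1.17 FPKM, SD, n = 3), but the log2 change of -0.37 no longer passed (limma adjusted p = 0.0541). Scaled instead to equal library totals it was -0.53 and passed (limma adjusted p = 0.0133).

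Dgcr8, the double-stranded RNA-binding subunit of the Microprocessor, was at 8.86, 7.84 and 7.42 FPKM in WT and at 9.08, 7.20 and 8.83 FPKM in KO. The 2 groups overlapped, with a KO value at each end of the range. Their means were 8.04 ± 0.736 and 8.37 ± 1.02 FPKM (SD, n = 3), a log2 change of 0.05 (95% interval -0.28 to 0.38, limma adjusted p = 0.779), an interval that excludes a fall as large as Drosha's. Relative to each library's own reads, Dgcr8 rose from 4.02 ± 0.368 to 6.28 ± 0.765 FPKM (SD, n = 3), with every KO library above every WT library, a log2 change of 0.53 (limma adjusted p = 0.0162). That call was lost in 3 of the 6 fits that left out 1 library, with adjusted p up to 0.0626 without KO replicate 3.

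Drosha protein is known to cut hairpins in the Dgcr8 mRNA itself, which is why the hairpin shown above is of interest. The Mir1306 row, named here after its values were seen, was at 50.5, 129 and 387 FPKM in WT. It was listed at 0 in KO replicate 1 and at values indistinguishable from 0 in the other KO libraries, so no fold is given. FPKM of so short a feature is unstable, and reads over the shared exon could be assigned to either row. The part of that assignment in the Dgcr8 values was not tested, and neither was any part of hairpin cutting by Drosha. Of the 50-base stretches of the 4320-base Dgcr8 transcript, 8.15% also occurred in another annotated gene, the hairpin genes included, against 0.509% for Drosha.

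The ratio of Dgcr8 to Drosha within a library does not depend on any multiplier of the whole library. Its log2 value was -1.45, -1.60 and -1.94 in WT and -0.29, -0.96 and -0.61 in KO. Dgcr8 was below Drosha in all 6 libraries, and every KO ratio was above every WT ratio. The mean rose from -1.66 ± 0.249 to -0.62 ± 0.336 (SD, n = 3), by 1.04 on the log2 scale, or from 0.316 to 0.651 Dgcr8 per Drosha (exact permutation p = 0.1, two-sided, the smallest that 3 against 3 libraries can give; 0.133 adjusted over the 4 ratios tested).

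**Figure D2:**
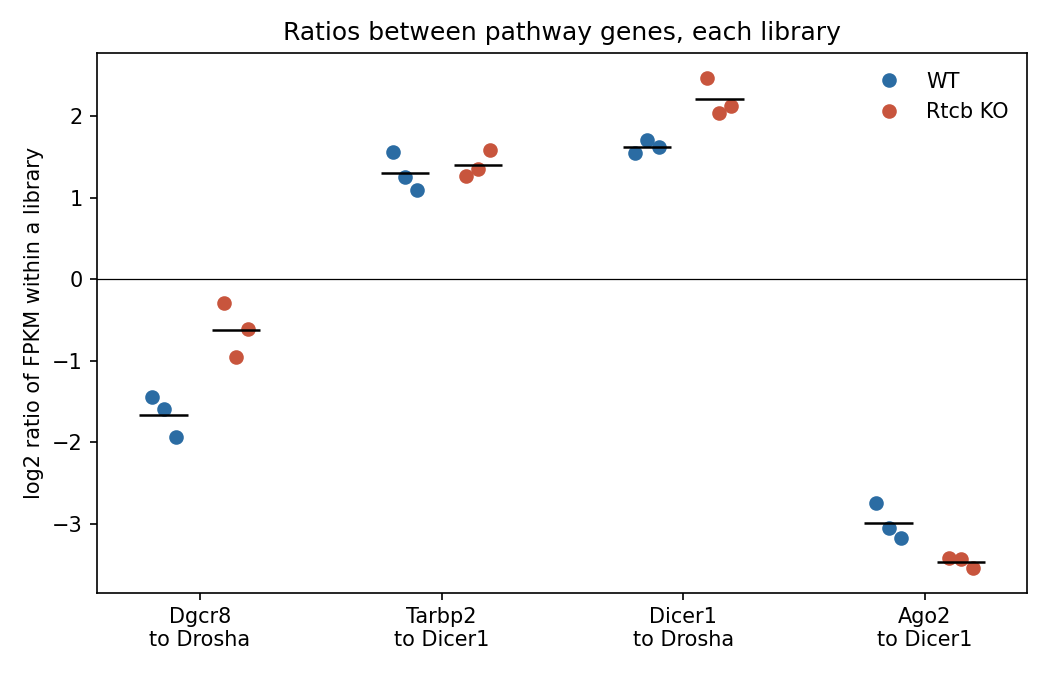
Log2 ratio of FPKM between 2 genes within each library (vertical axis) for Dgcr8 to Drosha, Tarbp2 to Dicer1, Dicer1 to Drosha and Ago2 to Dicer1; points are libraries and black lines are means of 3. The WT and KO points are apart for every ratio except Tarbp2 to Dicer1, where they overlap.

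Dicer1, the cytoplasmic ribonuclease shared by the microRNA and endogenous siRNA pathways, was at 70.6, 77.6 and 87.2 FPKM in WT and at 61.6, 57.5 and 58.6 FPKM in KO. All KO libraries were below all WT libraries, and the KO values were closer to each other than the WT values. The means were 78.5 ± 8.30 and 59.2 ± 2.09 FPKM (SD, n = 3), a log2 change of -0.40 (SE 0.104, limma adjusted p = 0.0112). With the multipliers removed the groups overlapped at 39.2 ± 4.15 and 44.4 ± 1.57 FPKM (SD, n = 3) and the change was 0.18 (limma adjusted p = 0.187), so the direction depended on the scaling. One row holds the whole gene, so the oocyte form of Dicer1 that starts from an internal promoter was not separated from the full-length form.

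Tarbp2, which binds double-stranded RNA and assists Dicer1, was at 208.6, 185 and 187 FPKM in WT and at 148, 146 and 176 FPKM in KO. The groups did not overlap, though KO replicate 3 came close to the lower WT libraries. The log2 change was -0.30 (SE 0.104, limma adjusted p = 0.0332), and with the multipliers removed it was 0.28 (limma adjusted p = 0.0597). After removal every KO library was above every WT library, at 110 to 132 against 92.3 to 104 FPKM. The deposited call was lost in 4 of the 6 fits that left out 1 library, with adjusted p up to 0.109 without KO replicate 1. The Tarbp2 level is uncertain for a further reason: 49.1% of the 50-base stretches of its 1523-base transcript also occurred in the pseudogenes Gm18561 and Gm18584.

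The proportion of Tarbp2 to Dicer1 did not separate the genotypes. Its log2 value was 1.56, 1.25 and 1.10 in WT and 1.27, 1.35 and 1.58 in KO, with overlapping groups and a difference of 0.096 (exact permutation p = 0.5). Dicer1 to Drosha, the enzymes of the successive cuts, was 1.54, 1.71 and 1.62 in WT and 2.47, 2.04 and 2.12 in KO. All KO ratios were higher: the mean rose from 1.62 ± 0.0831 to 2.21 ± 0.232 (SD, n = 3), or from 3.08 to 4.63 Dicer1 per Drosha (exact permutation p = 0.1, 0.133 adjusted over the 4 ratios).

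**Figure D3:**
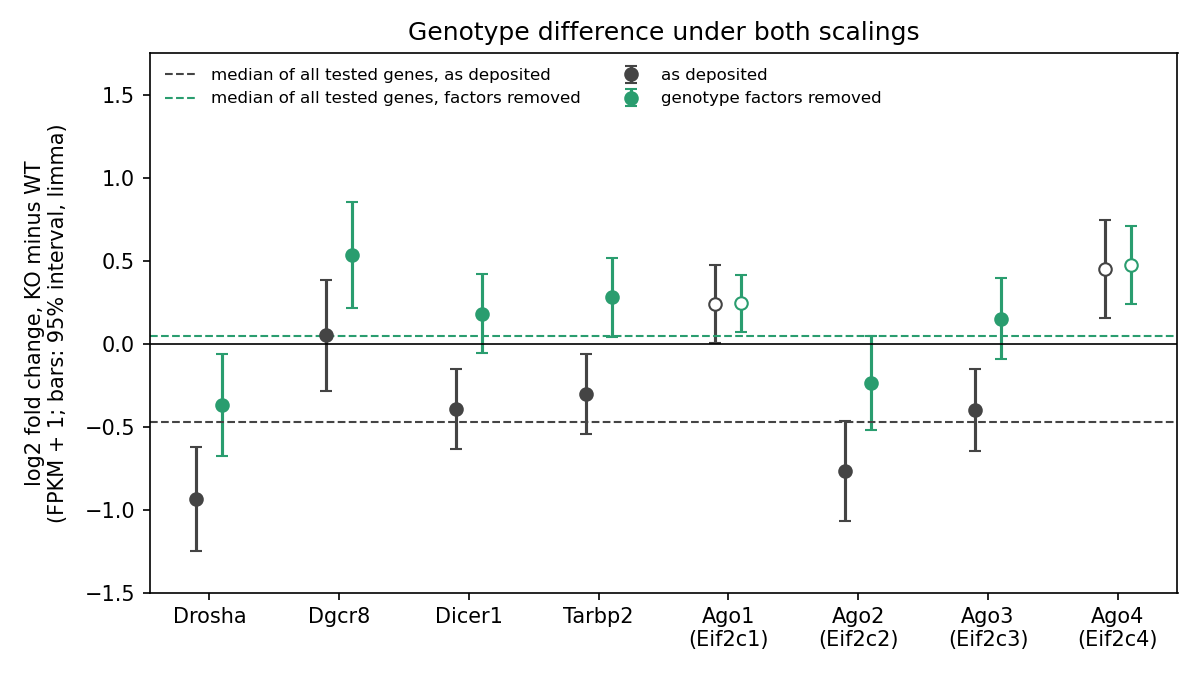
Limma log2 change, KO minus WT, on log2(FPKM + 1) with 95% intervals (vertical axis) for each gene, as deposited and with the genotype multipliers removed; open circles mark Ago1 and Ago4, fitted without the filter on low levels, and dashed lines are the medians of all tested genes. As deposited the intervals of Drosha, Dicer1, Tarbp2, Ago2 and Ago3 lie below 0, and after removal Drosha and Ago2 are the genes with negative estimates.

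Among the Argonautes, Ago3 and Ago2 made up nearly all of the signal and both fell as deposited, while the low Ago1 and Ago4 had higher means in KO. Ago2, the Argonaute that cuts its targets, was at 10.5, 9.35 and 9.65 FPKM in WT and at 5.73, 5.33 and 5.02 FPKM in KO. The groups were well apart, with means of 9.83 ± 0.594 and 5.36 ± 0.356 FPKM (SD, n = 3) and a log2 change of -0.77 (SE 0.130, limma adjusted p = 0.00137). Ago3 was at 20.6, 22.1 and 21.5 FPKM in WT and at 16.1, 16.7 and 15.2 FPKM in KO. Its groups were also apart, and its log2 change was -0.40 (SE 0.107, limma adjusted p = 0.0121); without WT replicate 2 the adjusted p was 0.0516. With the multipliers removed neither passed: Ago2 changed by -0.24 (limma adjusted p = 0.149) and Ago3 by 0.15 (limma adjusted p = 0.273). Both stayed apart, with every KO value of Ago2 below and every KO value of Ago3 above the WT values.

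Ago4 was at 0.303, 0.411 and 0.317 FPKM in WT and at 1.19, 0.705 and 0.657 FPKM in KO. Every KO value was above every WT value, and KO replicate 1 was the highest. The mean rose from 0.344 to 0.850 FPKM, a ratio of 2.47, and a fit without the filter gave a log2 change of 0.45 (limma adjusted p = 0.0260), which understates the change of a gene this low because 1 FPKM is added. Leaving out 1 library ended that call in 3 of 6 fits, with adjusted p up to 0.0863 without WT replicate 1. In the fit without the filter, 1161 of all 18553 fitted rows were called higher. Ago1 was at 0.249, 0.114 and 0.136 FPKM in WT and at 0.506, 0.207 and 0.425 FPKM in KO. These groups overlapped, since KO replicate 2 lay below WT replicate 1, and the unfiltered log2 change of 0.24 did not pass (limma adjusted p = 0.0986). It passed without KO replicate 2 (limma adjusted p = 0.0212), and with the multipliers removed the groups were apart and it was just under the threshold (0.24, limma adjusted p = 0.0496). The ratio of KO to WT means was 2.28 for Ago1 and ranged from 1.90 to 3.03 as each library was left out in turn. Of the 50-base stretches of the Ago1 transcript, 1.74% also occurred in the more abundant Ago2 or Ago3. The part of reads from those genes in the Ago1 values was not tested.

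Ago1, Ago3 and Ago4 are neighbouring genes on chromosome 4, in the order Ago3, Ago1, Ago4. The 3 neighbours thus did not move alike as deposited: the middle and one outer gene were near the floor of the table with higher KO means, and Ago3, the most abundant Argonaute, fell. With the multipliers removed, the KO to WT ratio of means was 3.42 for Ago1, 3.71 for Ago4 and 1.12 for Ago3.

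The Argonaute mRNAs summed to 31.6, 32.0 and 31.6 FPKM in WT and to 23.5, 22.9 and 21.3 FPKM in KO, a ratio of 0.711. With the multipliers removed the direction turned: the sums were 15.8, 16.0 and 15.8 FPKM in WT and 17.6, 17.2 and 16.0 FPKM in KO, a ratio of 1.07. As a share of that sum, which does not depend on the scaling, Ago2 held 33.2%, 29.2% and 30.5% in WT and 24.4%, 23.3% and 23.6% in KO. Every KO share was lower, with means of 31.0% ± 2.02 and 23.7% ± 0.590 (SD, n = 3), a difference of -7.24 percentage points (exact permutation p = 0.1, 0.133 adjusted over the 4 shares). Ago3 held 65.1%, 69.1% and 68.0% in WT and 68.4%, 72.8% and 71.4% in KO, and these shares overlapped (exact permutation p = 0.2). Ago4 held 1.08% ± 0.178 and 3.74% ± 1.14, and Ago1 held 0.525% ± 0.231 and 1.68% ± 0.681 (SD, n = 3). For both, all KO shares were above all WT shares, at the exact permutation p = 0.1 that is the smallest possible.

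**Figure D4:**
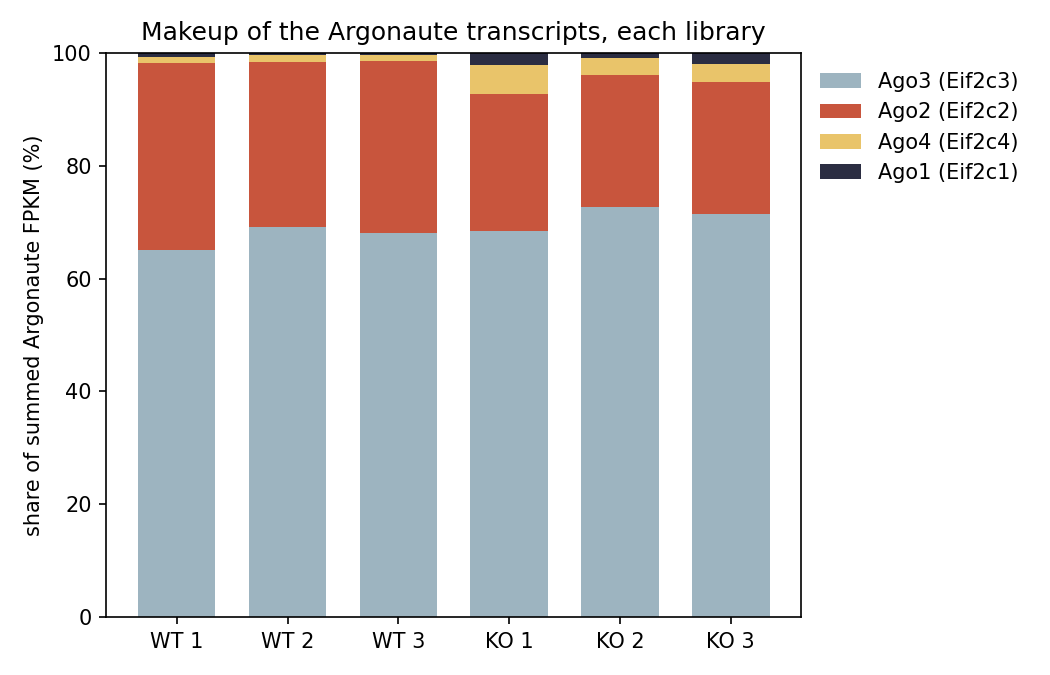
Share of each Argonaute gene in the summed Argonaute FPKM of a library, in percent (vertical axis), as stacked bars for the 3 WT and 3 KO libraries. The Ago2 share lies between 29.2% and 33.2% in WT and between 23.3% and 24.4% in KO, while Ago3 holds the largest share in every library.

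Set against Dicer1, which supplies it with short duplexes, Ago2 was also lower. The log2 ratio of Ago2 to Dicer1 was -2.75, -3.05 and -3.18 in WT and -3.42, -3.43 and -3.55 in KO. The groups did not overlap, and the mean fell by 0.47, from 0.126 to 0.0904 Ago2 per Dicer1 (exact permutation p = 0.1, 0.133 adjusted over the 4 ratios).

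The genes whose pattern over the 6 libraries was most like that of Dicer1, by root mean square difference of centred log2(FPKM + 1) among 10676 genes, were Hmga2 (0.0280), Exosc7 (0.0337) and Vps28 (0.0381). For Ago2 they were Hbs1l (0.0244), Cd99l2 (0.0253) and Wee2 (0.0284). Such closeness was shared by many genes: 25 genes lay within 2 times the closest distance for Dicer1 and 27 for Ago2, where the median distances were 0.289 and 0.279.

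Of 16 tested nuclear cofactors of primary microRNA cleavage, 12 were lower and none higher as deposited, with a median log2 change of -0.57 against -0.47 over all tested genes. Of all tested genes, 54.0% were lower and 9.29% higher as deposited, and 18.0% and 25.7% with the multipliers removed, the shares against which the counts of this and the following lists stand. Removing the multipliers left 3 lower and 2 higher. Hnrnpa1, a nuclear RNA-binding protein, fell from 62.5 to 23.7 FPKM (-1.34, limma adjusted p = 0.000341), and Mettl3, the RNA methyltransferase that marks primary microRNAs, from 63.2 to 32.1 FPKM (-0.96, limma adjusted p = 0.000248). Safb, a scaffold attachment factor, fell from 12.8 to 4.89 FPKM (-1.23), and its paralog Safb2 from 17.1 to 8.99 FPKM (-0.86). Hnrnpa1, Mettl3 and Safb stayed lower with the multipliers removed (-0.76, -0.38 and -0.66), and Safb2 did not pass (-0.31, limma adjusted p = 0.111).

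In the export step, 3 of 5 genes were lower as deposited, near the 54.0% of all tested genes, and the list's median was -0.55. Xpo5, the exportin that carries hairpins out of the nucleus, was at 21.8, 16.4 and 14.8 FPKM in WT and at 10.1, 6.88 and 5.70 FPKM in KO. The groups were apart, with a log2 change of -1.14 (limma adjusted p = 0.00265) that became -0.57 with the multipliers removed (limma adjusted p = 0.0599). Rcc1, the exchange factor that loads Ran with GTP, fell from 33.9 to 17.4 FPKM (-0.90) and Ranbp2, a nuclear pore protein, from 6.48 to 4.11 FPKM (-0.55). The Ranbp2 call was lost without WT replicate 3 (limma adjusted p = 0.0506). Ran, the small GTPase that powers export, had a log2 change of 0.29 (limma adjusted p = 0.308) and Rangap1, its activating protein, of -0.36 (limma adjusted p = 0.401). With the multipliers removed the calls of Xpo5, Rcc1 and Ranbp2 ended, and Ran was the one gene of the list that passed, at 0.86 (limma adjusted p = 0.0198).

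Among the Dicer partners and the chaperones that load Argonautes, 10 of 13 tested genes were lower and 2 higher as deposited (54.0% and 9.29% of all tested genes), with a median of -0.64 against -0.47 over all tested genes; 3 were lower and 3 higher with the multipliers removed. The chaperone genes that fell included Ahsa1, an activator of Hsp90 (501 to 241 FPKM, -1.05), Hspa8, an Hsp70 protein (1135 to 588 FPKM, -0.94), and Hsp90aa1 itself (2542 to 1542 FPKM, -0.72). Without the multipliers Ahsa1 and Hspa8 stayed lower (-0.47 and -0.36) and Hsp90aa1 did not pass (-0.13, limma adjusted p = 0.260). Tsnax and Tsn, the subunits of the nuclease C3PO that clears the passenger strand, moved apart. Tsnax fell from 154 to 58.9 FPKM (-1.36, limma adjusted p = 0.000162) and Tsn rose from 71.7 to 94.5 FPKM (0.39, limma adjusted p = 0.00782), and both calls held with the multipliers removed (-0.78 and 0.96). Tsn, Fkbp4 and Prkra were named after their values were seen. Fkbp4, an Hsp90 co-chaperone, rose from 27.5 to 46.5 FPKM (0.72), while Prkra, a Tarbp2 relative, fell from 1.97 to 0.997 FPKM (-0.60). The call was lost in 4 of 6 fits that left out 1 library for both, with adjusted p up to 0.0697 for Fkbp4 and 0.110 for Prkra, each without KO replicate 3. Fkbp4 passed with the multipliers removed (1.26) and Prkra did not (-0.21, limma adjusted p = 0.354). The KO mean of Prkra was under the 1 FPKM needed for the test. Prkra reached that level only through its WT values, so its call, counted among the 10 lower, is not read as a result.

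The silencing partners of the Argonautes split in direction: of 17 tested genes 5 were higher and 6 lower as deposited (9.29% and 54.0% of all tested genes), and 7 higher and 4 lower with the multipliers removed (25.7% and 18.0%). Their median was -0.13, against -0.47 over all tested genes. Among the genes that rose were Fmr1, an RNA-binding translational regulator (4.20 to 13.4 FPKM, 1.45), Pabpc1, a poly(A)-binding protein (8.18 to 29.6 FPKM, 1.70), Ddx6, a helicase of P-bodies (3.10 to 7.41 FPKM, 1.03), and Wtip, a LIM protein (1.31 to 4.33 FPKM, 1.21). Ipo8, an importin that binds Argonautes, fell from 149 to 73.7 FPKM (-0.99), Gigyf2, a translational repressor, from 23.2 to 11.7 FPKM (-0.92), and Larp7, better known as a 7SK RNA-binding protein, from 96.6 to 46.5 FPKM (-1.04). These 7 genes kept their calls with the multipliers removed. The 3 GW182 genes, which bind Argonautes directly and, like Pabpc1, Ddx6 and Wtip, were named after their values were seen, had no higher call under either scaling: Tnrc6c fell from 16.9 to 10.2 FPKM (-0.66, limma adjusted p = 0.00551), and the log2 changes of Tnrc6a and Tnrc6b were -0.13 and -0.33 (limma adjusted p = 0.489 and 0.101). Without the multipliers the 3 changes were -0.11, 0.30 and 0.18 for Tnrc6c, Tnrc6a and Tnrc6b, and none passed.

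**Figure D5:**
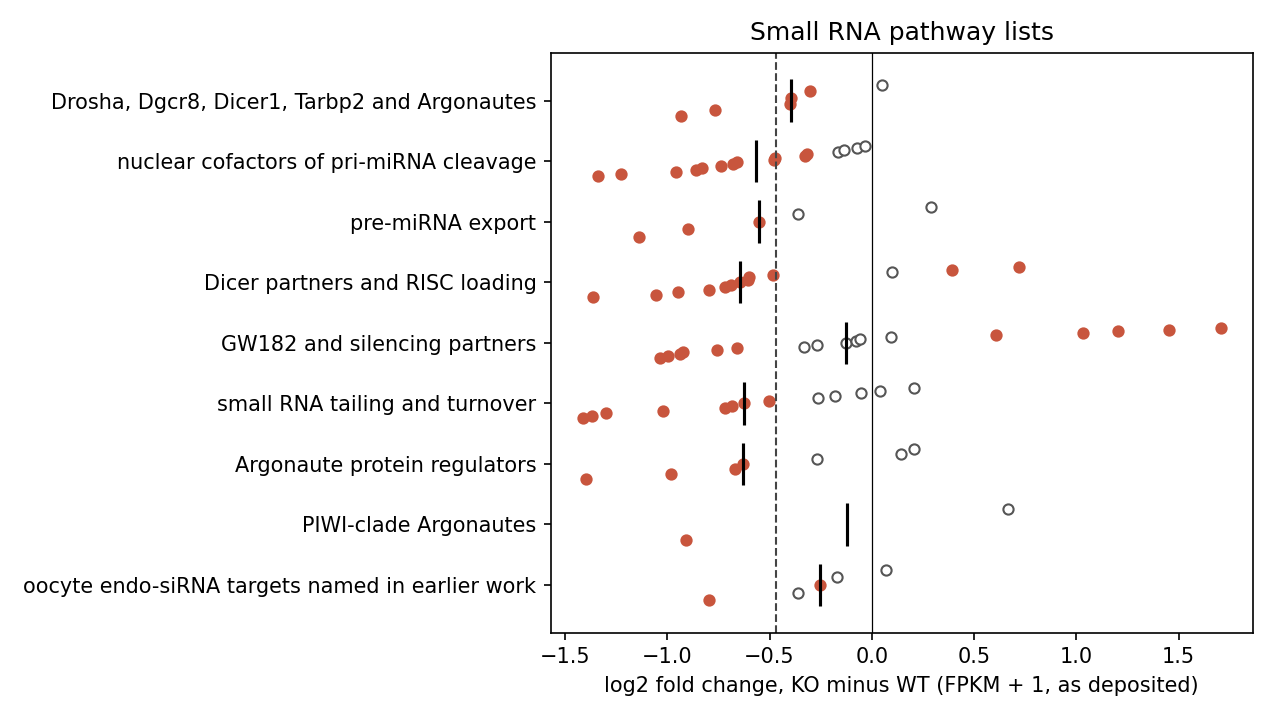
Limma log2 change, KO minus WT, as deposited (horizontal axis) of every tested gene of each fixed pathway list (rows); filled points passed the test, open points did not, black ticks are list medians and the dashed line is the median of all tested genes. Most points lie left of 0. The filled points right of it are 5 of the GW182 and silencing partners and 2 of the Dicer partners.

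Of 13 tested genes of small RNA tailing and turnover, 8 were lower and none higher as deposited, near the 54.0% of all tested genes that were lower, with a median of -0.63; with the multipliers removed 3 were lower and 2 higher. Henmt1 (row 4921515J06Rik), a methyltransferase of small RNA ends, fell from 213 to 82.0 FPKM (-1.37), Parn, a deadenylase that trims RNA ends, from 46.3 to 16.8 FPKM (-1.41), and Dis3l2, an exonuclease that degrades uridylated RNA, from 6.68 to 2.11 FPKM (-1.30). These 3 also fell with the multipliers removed (-0.78, -0.83 and -0.74). Xrn2, a nuclear exonuclease, fell from 68.4 to 41.3 FPKM as deposited (-0.72) but not with the multipliers removed (-0.14, limma adjusted p = 0.273).

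Of 7 tested regulators of Argonaute protein, 4 were lower and none higher as deposited, near the 54.0% of all tested genes that were lower, with a median of -0.63, and 1 was lower and 1 higher with the multipliers removed. Csnk1a1, a kinase of Ago2, fell to 0.628 of its WT mean of 207 FPKM (-0.67), and the prolyl hydroxylase subunits P4ha1 and P4hb fell from 86.7 to 55.7 FPKM (-0.63) and from 248 to 128 FPKM (-0.98). Usp5, a deubiquitinase, fell from 33.4 to 12.0 FPKM (-1.40) and was the gene that stayed lower with the multipliers removed (-0.82, limma adjusted p = 0.00479), while the calls of Csnk1a1, P4ha1 and P4hb ended.

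Of 5 genes known as targets of oocyte endogenous siRNAs, 2 were lower and none higher as deposited (54.0% and 9.29% of all tested genes), with a median of -0.25 against -0.47 over all tested genes. Kif4, a kinesin, fell from 111 to 63.4 FPKM (-0.80, limma adjusted p = 0.000547), a call that ended with the multipliers removed (-0.22, limma adjusted p = 0.141). Pdzd11, a PDZ-domain protein, fell from 294 to 247 FPKM (-0.25, limma adjusted p = 0.0181) as deposited and was higher with the multipliers removed (0.33, limma adjusted p = 0.00901), so its direction depended on the scaling. The Pdzd11 call as deposited was also lost in 3 of 6 fits that left out 1 library, with adjusted p up to 0.0657 without WT replicate 2. Rangap1, Ppp4r1 and Hdac1 did not pass, with log2 changes of -0.36, -0.17 and 0.07.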

How the data were processed

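Per the labels' protocols, 6 libraries of 10 oocytes each were made by Smart-seq2 and sequenced as paired ends. Per the submitters' processing notes, TopHat2 2.1.1, Cufflinks 2.2.1 and mm9 were used. The authors deposited 1 table of FPKM per gene, normalized to ERCC spike-ins; it holds no counts, so depth is unknown and no counting interval can be given, and mRNA levels alone were measured. The genotype multipliers were found by testing 447 simple fractions against the 6-digit values.

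All rows with a mean of at least 1 FPKM were fitted with limma 3.58.1 in R 4.3.3 on log2(FPKM + 1), with an intensity trend, 3 WT against 3 KO libraries and no covariate, and p-values were adjusted by Benjamini-Hochberg over 12029 genes at 0.05. The added 1 FPKM understates changes of low genes. Shares and within-library ratios were compared by exact permutation tests, two-sided. The fit was tested on simulated data. Alternatives changed the pseudocount, filter, scaling, trend and libraries. Nrde2, Zswim8 and Csnk1a1l were not analysed here, and 1 gene of the silencing partners is counted but not reported by name here.

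The genes and lists were chosen with earlier results of these data known. All 8 genes were named, with up to 4 genes of smallest p from each list, every gene of lists of 5 or fewer, and the 3 genes most like Dicer1 and Ago2. Promoter and microRNA sequences are RefSeq's, on GRCm38.p6, matched by symbol for 7 of the 8 genes, and transcript overlaps were computed from GENCODE transcripts.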

Additional observations from a re-analysis of the deposited data

How the results depend on the processing

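Across all genes, 1118 were higher and 6501 lower as deposited; the counts were 490 higher with a minimum mean of 10 FPKM, 2283 and 3107 with equal library totals, 2813 and 2555 with median-of-ratios scaling, and 3097 and 2161 with the genotype multipliers removed. These scalings differ by construction in what is held constant. Leaving out 1 library gave 774 to 1347 higher. Of the core genes, 5 were lower and 0 higher as deposited. Without the filter 1 was higher, Ago4. With the filter kept, 1 was higher with median ratios and with multipliers removed, Dgcr8 in both. With equal totals, median ratios and multipliers removed, 1, 1 and 0 were lower. Leaving out 1 library gave 3 (without WT replicate 2) to 5 lower. In the order equal totals, median ratios and multipliers removed, the log2 change reversed for Dicer1 (0.031, 0.12, 0.18), Tarbp2 (0.13, 0.22, 0.28) and Ago3 (0.011, 0.099, 0.15). With 1 library left out, Dgcr8 ranged from -0.0060 to 0.14 and Tarbp2 to Dicer1 from -0.0065 to 0.23. Without an intensity trend Tarbp2 did not pass (limma adjusted p = 0.0620). In that order of scalings, the lists' higher and lower counts were 1, 1, 2 and 4, 3, 3 for nuclear cofactors (1 higher without the filter); 0, 1, 1 and 1, 1, 0 for export; 5, 3, 3 lower for Dicer partners; 1, 2, 2 and 5, 4, 3 for turnover; 1, 1, 1 and 2, 1, 1 for Argonaute regulators; 1, 1, 1 higher and 1, 0, 0 lower for the PIWI genes; and 0, 1, 1 and 1, 0, 0 for siRNA targets. A minimum of 10 FPKM tests fewer genes and left 2 silencing partners higher, 5 turnover genes lower and 0 PIWI genes lower. Without an intensity trend 1 siRNA target was lower. With 1 library left out, export genes higher ranged from 0 to 1, export genes lower from 2 to 3, Dicer partners higher from 1 to 2, PIWI genes higher from 0 to 1 and siRNA targets lower from 1 to 2. Causes of the changes with single libraries, the filter and the trend were not tested.

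A fit with the replicate number as a block called 1108 genes higher and 6432 lower, and changed no call among the core genes (Tarbp2 adjusted p = 0.0481 by limma). The correlations of same-numbered deviations were 0.141, -0.0988 and 0.0379, so the numbers were not taken to pair the samples. FPKM without counts gives no limit of detection, and 3 libraries against 3 cannot give an exact p below 0.1.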

Other observations

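The PIWI-clade Argonautes, which carry piRNAs, differed in level. Piwil1 was at 11.8, 11.6 and 8.94 FPKM in WT and at 4.83, 4.77 and 6.24 FPKM in KO, close to the level of Ago2 in both genotypes. Its groups did not overlap, and it fell by 0.91 on the log2 scale as deposited (limma adjusted p = 0.00196) and by 0.37 with the genotype multipliers removed (limma adjusted p = 0.0899). Piwil2 was at 0.855, 0.800 and 0.596 FPKM in WT and at 3.22, 0.946 and 1.59 FPKM in KO, with means of 0.751 and 1.92 FPKM. It reached the mean of 1 FPKM needed for the test only through its KO values, of which replicate 1 was the highest. Its log2 change of 0.67 did not pass as deposited (limma adjusted p = 0.0648). With the multipliers removed the change was 0.77 and under the threshold (limma adjusted p = 0.0318), a call not read as a result because of that filter. Piwil4 was near the floor of the table in both genotypes, at 0.0828 and 0.107 FPKM and listed at 0 in WT, and listed at 0 in every KO library.

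The table also holds 604 rows named for microRNAs, of which 547 were at 0 in every library and 15 were above 0 in every library. Of the 52 tested, 5 were called higher and 5 lower by limma, where 9.29% of all tested genes were higher and 54.0% lower. No more than 15 of these 52 were above 0 in every library, and their calls are not read as a result. In a library of polyadenylated RNA the rows named for microRNAs do not measure mature microRNAs.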
